A study of Mus musculus with 9 samples.

Results

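The 50 genes described here encode the machinery that licenses, starts and carries out DNA replication. They were chosen by name: 9 for origin recognition and licensing, 9 of the MCM family, 7 for helicase activation, 6 for the sliding clamp and its loader, 8 for the polymerases and primase, 3 for single-strand binding, 2 for Okazaki fragment maturation, 4 for fork protection and 2 for ribonucleotide reductase, of 21887 protein-coding genes in the annotation. A peak was assigned to a member when its summit lay inside the gene's span on GRCm38 or within 10 kb of either end, and 869 of the 328883 listed peaks met this rule. Peaks within 1 kb of an end were kept apart from the others.

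In eukaryotes the origin recognition complex, Cdc6 and Cdt1 load the ring-shaped MCM helicase onto DNA before S phase, and geminin (Gmnn) holds Cdt1 back. The Cdc7 and Dbf4 kinase, Cdc45 and the GINS complex turn the loaded ring into an active helicase, after which primase, the polymerases, the PCNA clamp and its RFC loader copy the strands. Many of these genes are known targets of E2F factors, which drive transcription at the entry into S phase. Blood stem cells are mostly quiescent, whereas the progenitors derived from them divide often.

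Open chromatin was profiled by ATAC-seq, a method that cuts accessible DNA with Tn5 transposase, in LSK cells of mice (lineage-negative, Sca-1-positive, Kit-positive stem and progenitor cells), from 50000 cells a library. The groups were WT (n = 2), Bcat_KO (n = 2, β-catenin), HOXA9_KO (n = 2), PRMT1_KO (n = 2) and dKO (n = 1, β-catenin and Hoxa9 together). Titles name each mutant as KO, whereas its genotype tag says knockdown. The series text names primary transplanted Prmt1KO mice as the source. Whether the WT, Bcat_KO, HOXA9_KO and dKO cells also came from transplanted mice, which promoter drove any Cre, the age of the animals, whether animals were pooled and whether replicates came from separate animals are not given in the sources used here, so the p-values below measure the spread between libraries, which may be technical.

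The lists held 28325 and 35581 peaks in WT, 39881 to 45460 in the 6 libraries of the single mutants and 10639 in dKO. As a rough measure of depth, the lowest background of each list was divided by the length of its shortest peak. This gave 6.29 and 7.38 reads per kb in WT, 8.27 to 11.2 in the single mutants and 2.41 in dKO. The shortest peak was 183 bp long in WT replicate 1, 164 in WT replicate 2, 126 to 153 in the single mutants and 191 in dKO. Undivided, the lowest background was 1.35 reads in WT replicate 1 and 1.03 in WT replicate 2. It was 1.2 to 1.6 in the single mutants, a range that holds WT replicate 1, and 0.461 in dKO. No peak lay on the first 90 Mb of chromosome Y in WT, against 12 to 16 peaks in each single mutant library and 6 in dKO. No member lies on X or Y. WT and mutants therefore differed in list length and on Y in each contrast with WT. Per kb, both WT libraries also had a lower background than every single mutant library, and undivided only WT replicate 2 had. The part of these differences, and of depth, in the results was not tested. Of 9 LSK markers, 6 in each WT list, 7 or 8 in each single mutant list and 2 in the dKO list had a peak at an end or listed start, and Ly6a, which encodes Sca-1, had none in any list. B cell markers had 0 of 4 in every list, T cell markers 2 or 3 of 4, erythroid markers 1 or 2 of 4, granulocyte and monocyte markers 0 to 2 of 4 and stromal and endothelial markers 2 or 3 of 4 in the paired libraries, and all of these were at 0 of 4 in dKO.

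All 50 members had a peak at an end or a listed start. In each of the 8 libraries of the paired groups, 50 of 50 members had a peak within 1 kb of an end or of a listed start, against 55.7% to 60.9% of all protein-coding genes. In 46 members the peak lay at an end of the gene span, and for 9 of these no strand was at hand, so that the end cannot be named as the start; in Lig1, Orc1, Orc4 and Rfc1 it lay at a start that RefSeq lists inside the span, in all 8 libraries. The members' peaks were also stronger than those of other genes: by rank in each list, where 1 is the strongest by the authors' p-value, the members' median was 3148 to 4364.5 and that of all genes with such a peak 6799 to 8835.5. Of the 400 member peaks, the 328 with a known strand had their summits a median of 24 bp upstream of the start (-24; quartiles -75.25 and 28 bp), and the median peak was 711 bp wide. In 19 of the 50 members another gene also starts or ends within 1 kb of the peak's median summit. Prkdc does so beside Mcm4 and Smyd4 beside Rpa1, so such a peak cannot be given to 1 gene.

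The second list, 38 other replication genes such as the polymerase subunit Pola1, the chromatin assembly factor Chaf1a and the nucleotide enzymes Tk1 and Tyms, was open in 35 to 37 genes of 38 per paired library. Atad5, E2f2 and Tk1 were the genes without a peak, each in several lists.

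**Figure D1:**
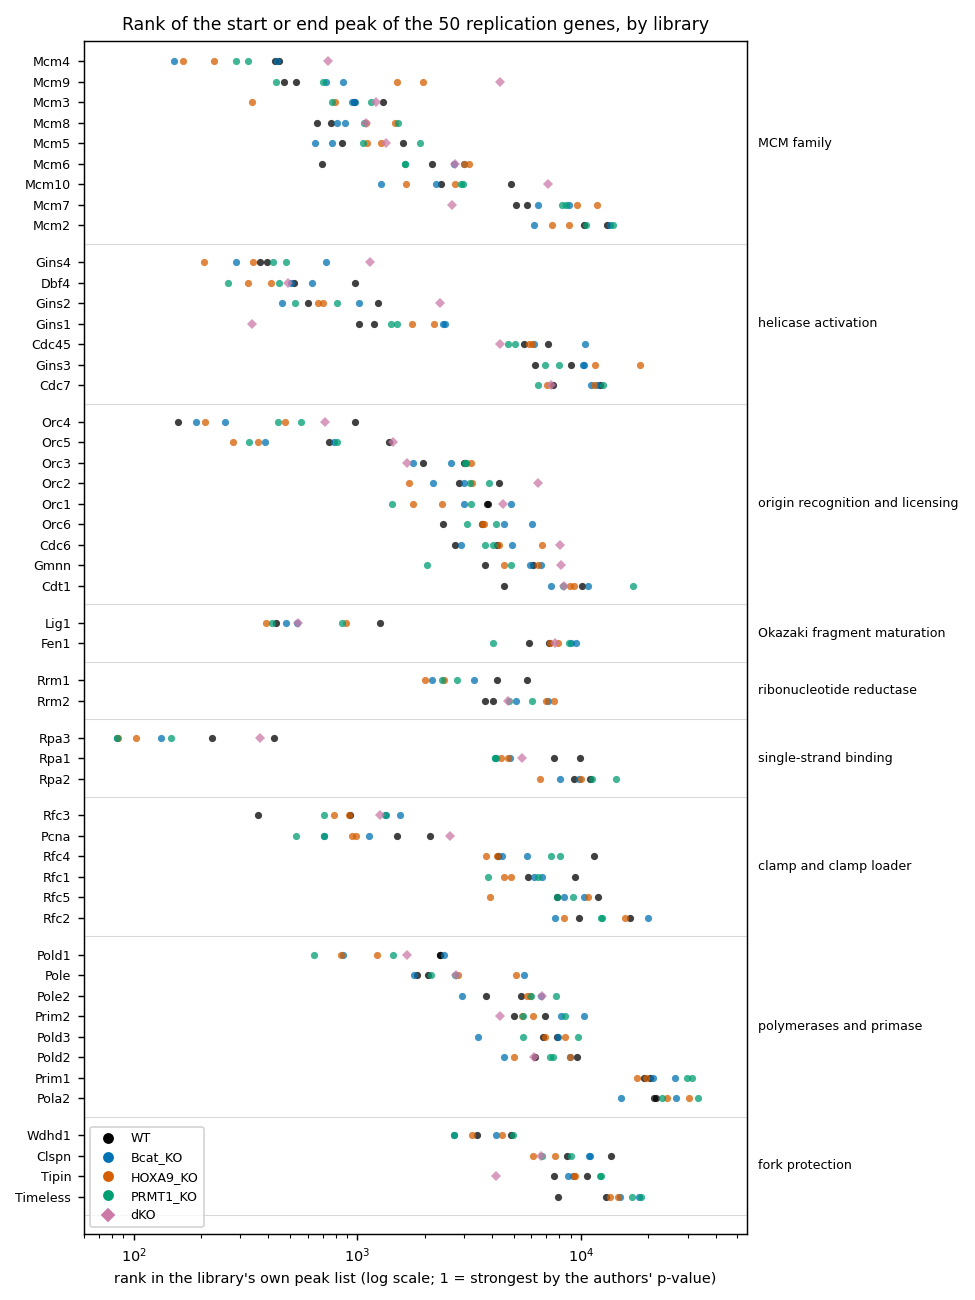
Rank of the start or end peak of each member in each library's own list, on a log scale where 1 is the strongest, grouped by role; circles are the 8 paired libraries and diamonds the dKO library. Members span ranks from below 100 for Rpa3 to 33238 for Pola2 in 1 PRMT1_KO library, and the libraries of 1 member lie much closer together than the members do.

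Levels are given below as summit reads, the height of the stack at the highest base of a peak. Whether the stack counts whole fragments or extended reads is not given in the sources used here. The levels were recovered from the authors' fold and p-value and scaled between the 8 libraries by the median ratio over 9970 sites. Over all members and libraries they ran from 9.69 to 159. Ranks quoted for a member are its median over the 8 lists.

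Among the genes of origin recognition and licensing, Orc4, a subunit of the origin recognition complex, had the strongest peak (median rank 347.5), with scaled summit reads of 101 and 152 (WT), 120.3 and 132 (Bcat_KO), 109 and 137 (HOXA9_KO) and 111 and 109 (PRMT1_KO). The weakest was Cdt1, the MCM loading factor (median rank 9119), with 26.2 and 42.8 (WT), 29 and 37.3 (Bcat_KO), 33 and 30.8 (HOXA9_KO) and 34.7 and 22.2 (PRMT1_KO). The groups overlapped for both genes, and for Cdt1 the lowest and the highest value were those of PRMT1_KO replicate 2 and WT replicate 2. Orc1, the largest subunit, gave 47.3 and 44.1 (WT), 55 and 45.4 (Bcat_KO), 59.5 and 65.4 (HOXA9_KO) and 68.6 and 55 (PRMT1_KO); both WT libraries lay within the range of Bcat_KO or below it, and below all 4 libraries of HOXA9_KO and PRMT1_KO.

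In the MCM family 7 of 9 members ranked at a median of 2558.5 or better. Mcm4, a subunit of the helicase ring, was strongest (median rank 304.5), with 125 and 127 (WT), 129.7 and 117 (Bcat_KO), 127 and 141 (HOXA9_KO) and 119 and 133 (PRMT1_KO), and the groups overlapped. Mcm2, another ring subunit, was weakest (median rank 10462.5), with 33.2 and 28.5 (WT), 48.8 and 31.3 (Bcat_KO), 44.4 and 40.4 (HOXA9_KO) and 36.3 and 29 (PRMT1_KO). Both proteins sit in the same ring, and the lowest Mcm4 library lay above the highest Mcm2 library.

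For helicase activation, Gins4 (median rank 380), a GINS subunit, gave 111 and 115 (WT), 89.2 and 116 (Bcat_KO), 115 and 112 (HOXA9_KO) and 98.5 and 106 (PRMT1_KO). Cdc7, the kinase, was weakest (median rank 11259.5), with 29.2 and 22 (WT), 25.9 and 24.2 (Bcat_KO), 32.1 and 25 (HOXA9_KO) and 33.9 and 24.1 (PRMT1_KO). Its partner Dbf4 ranked far above it, at a median of 477. No group stood apart for Gins4 or Cdc7.

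Of the clamp and its loader, the loader subunit Rfc3 was strongest (median rank 924.5), with 116 and 90.8 (WT), 71.6 and 78.7 (Bcat_KO), 86.8 and 88.5 (HOXA9_KO) and 75.9 and 91.7 (PRMT1_KO). Rfc2 was weakest (median rank 12392), with 25.2 and 15.6 (WT), 16.6 and 34.3 (Bcat_KO), 17.9 and 29.8 (HOXA9_KO) and 25 and 25.1 (PRMT1_KO); Bcat_KO replicate 2 was the highest library, and the groups overlapped. Rfc1, the large loader subunit, whose peak lies at a listed internal start, gave 24.2 and 33.7 (WT), 36.3 and 34.3 (Bcat_KO), 38.7 and 42.3 (HOXA9_KO) and 46 and 36.7 (PRMT1_KO).

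The polymerases and primase held the 2 weakest of the 50 peaks. Pola2, the regulatory subunit of polymerase α, had a median rank of 23676 and scaled summit reads of 12.1 and 11.7 (WT), 13.5 and 20.2 (Bcat_KO), 10.4 and 12.5 (HOXA9_KO) and 9.69 and 13.5 (PRMT1_KO). Prim1, the catalytic primase subunit, had a median rank of 20673.5, with 12.1 and 13 (WT), 14.5 and 12.1 (Bcat_KO), 14.2 and 15.4 (HOXA9_KO) and 9.69 and 10.6 (PRMT1_KO). Pold1, the catalytic subunit of polymerase δ, was strongest (median rank 1330.5). Polymerase α and primase form 1 complex, and its other member here, Prim2, ranked at a median of 6499.

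The single-strand binding genes held the strongest of these peaks. Rpa3, the smallest subunit of replication protein A, had a median rank of 117.5 and scaled summit reads of 137 and 123 (WT), 144 and 141 (Bcat_KO), 151 and 159 (HOXA9_KO) and 132 and 152 (PRMT1_KO). Rpa2 was the weakest of the 3 (median rank 9923.5), with 26.2 and 22 (WT), 31.1 and 28.2 (Bcat_KO), 25.5 and 33.7 (HOXA9_KO) and 21 and 25.1 (PRMT1_KO), and its groups overlapped. In Okazaki fragment maturation, the ligase Lig1 (median rank 507) gave 88.6 and 115 (WT), 103 and 103 (Bcat_KO), 89.7 and 115 (HOXA9_KO) and 88.8 and 109 (PRMT1_KO). The flap endonuclease Fen1 (median rank 7575) gave 37.3 and 33.7 (WT), 33.2 and 33.3 (Bcat_KO), 36.8 and 33.7 (HOXA9_KO) and 50.9 and 32.8 (PRMT1_KO), with PRMT1_KO replicate 1 above the other 7 libraries.

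Fork protection was the weakest group by its median rank of 9112. Its strongest gene, the polymerase adaptor Wdhd1 (median rank 3809), gave 51.4 and 40.2 (WT), 45.6 and 56.5 (Bcat_KO), 51.9 and 47.1 (HOXA9_KO) and 56.5 and 44.4 (PRMT1_KO). Timeless (median rank 14783.5) gave 21.1 and 31.1 (WT), 18.7 and 22.2 (Bcat_KO), 21.7 and 22.1 (HOXA9_KO) and 20.2 and 18.3 (PRMT1_KO), and WT replicate 2 was the highest library. In ribonucleotide reductase, which makes deoxynucleotides, the large subunit Rrm1 had a median rank of 2618.5 and the small subunit Rrm2 one of 5582.5.

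To show what the open sites look like in sequence, promoter windows of 300 bases (250 before to 50 after a start) from RefSeq on GRCm38.p6 were searched; 41 of the 50 members matched, with 50 windows. The letters searched, on both strands, were TTTGGCGC or TTTCGCGC for E2F, CCAAT for NF-Y, TTTGAA for the cell cycle homology region (CHR) and CACGTG for the E-box. E2F letters stood in 22% of the member windows (11 of 50), against 1.05% of the 21263 windows of all protein-coding genes and 1.68% of the 9901 windows of genes with a start peak in all 8 libraries. CCAAT stood in 54% of member windows (27), against 38.2% of all and 39.1% of those with a start peak. TTTGAA stood in 16% (8), against 16.0% and 11.5%, and CACGTG in 14% (7), against 7.84% and 10.4%. The median GC share was 61.8% in member windows, 56.3% in all and 61.3% in those with a start peak. A match of letters is a description of the window and not a binding site.

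By role, 5 of the 8 MCM genes with a window had E2F letters. CCAAT stood at 8 of 8 MCM, 3 of 3 single-strand binding and 2 of 2 ribonucleotide reductase genes, and TTTGAA at the helicase activation genes Cdc45, Cdc7, Dbf4 and Gins3 and at Fen1, Mcm2 and Pold2. E2F letters were also found at Cdt1, Orc1, Clspn, Lig1, Pole2 and Rfc3, and at none of the 4 helicase activation genes, 3 single-strand binding genes and 2 ribonucleotide reductase genes with a window. The 11 genes with E2F letters had a median of their median ranks of 2437, and the 30 without 4817.75, as a description over genes. Of the 11, 5 are MCM genes, the role with the best median rank (1084.5), so letters and role are mixed here. The 9 members without a window, with median ranks from 304.5 (Mcm4) to 12392 (Rfc2), are not counted. In the 38 other replication genes, 5 of 36 windows (13.9%) held E2F letters.

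The 250 bases before the start are shown for Prim1, the member whose end peak was called below, for the 3 strongest members with a window (Rpa3, Orc4 and Dbf4), and, chosen after their values were seen, for Rpa1, Rfc3, Mcm5, Mcm6 and Orc1. They run 5′ to 3′ on the strand of the gene, and capitals mark the letters of the 4 searches.
Rpa3 (chr6:8259142-8259391, minus strand): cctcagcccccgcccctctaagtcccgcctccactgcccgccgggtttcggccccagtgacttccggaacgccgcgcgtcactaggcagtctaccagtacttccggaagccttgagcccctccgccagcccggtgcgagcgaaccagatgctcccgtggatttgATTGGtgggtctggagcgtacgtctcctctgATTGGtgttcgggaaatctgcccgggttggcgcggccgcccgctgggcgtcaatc
Orc4 (chr2:48949268-48949517, minus strand): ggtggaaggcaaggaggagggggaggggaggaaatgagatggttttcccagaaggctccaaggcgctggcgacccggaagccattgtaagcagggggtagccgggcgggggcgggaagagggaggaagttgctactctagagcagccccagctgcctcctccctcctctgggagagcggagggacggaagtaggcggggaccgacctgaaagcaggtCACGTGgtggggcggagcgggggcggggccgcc
Dbf4 (chr5:8422717-8422966, minus strand): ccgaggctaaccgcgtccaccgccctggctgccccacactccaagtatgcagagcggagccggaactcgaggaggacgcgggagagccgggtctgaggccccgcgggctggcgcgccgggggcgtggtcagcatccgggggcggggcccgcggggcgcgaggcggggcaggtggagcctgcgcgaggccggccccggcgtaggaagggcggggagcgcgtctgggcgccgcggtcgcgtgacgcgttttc
Rpa1 (chr11:75348384-75348633, minus strand): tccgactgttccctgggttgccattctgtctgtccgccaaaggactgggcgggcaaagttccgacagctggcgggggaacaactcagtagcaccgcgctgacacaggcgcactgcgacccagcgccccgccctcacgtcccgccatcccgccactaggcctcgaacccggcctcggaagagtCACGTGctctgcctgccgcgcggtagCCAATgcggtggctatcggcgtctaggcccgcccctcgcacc
Prim1 (chr10:128014965-128015214, plus strand): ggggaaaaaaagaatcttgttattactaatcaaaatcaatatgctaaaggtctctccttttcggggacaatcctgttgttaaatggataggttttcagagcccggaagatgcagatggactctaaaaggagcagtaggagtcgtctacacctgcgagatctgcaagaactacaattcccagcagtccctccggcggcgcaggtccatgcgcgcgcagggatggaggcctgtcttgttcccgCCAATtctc
Rfc3 (chr5:151651209-151651458, minus strand): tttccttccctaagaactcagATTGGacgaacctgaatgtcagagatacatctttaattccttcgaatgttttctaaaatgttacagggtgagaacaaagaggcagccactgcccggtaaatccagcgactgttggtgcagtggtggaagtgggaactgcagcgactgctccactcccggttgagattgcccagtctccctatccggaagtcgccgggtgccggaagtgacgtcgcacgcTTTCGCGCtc
Orc1 (chr4:108579204-108579453, plus strand): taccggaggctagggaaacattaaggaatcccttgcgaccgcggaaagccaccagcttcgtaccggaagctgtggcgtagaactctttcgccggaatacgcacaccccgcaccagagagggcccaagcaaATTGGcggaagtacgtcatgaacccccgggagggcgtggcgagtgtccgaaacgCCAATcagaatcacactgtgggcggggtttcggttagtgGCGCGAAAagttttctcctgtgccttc
Mcm5 (chr8:75109259-75109508, plus strand): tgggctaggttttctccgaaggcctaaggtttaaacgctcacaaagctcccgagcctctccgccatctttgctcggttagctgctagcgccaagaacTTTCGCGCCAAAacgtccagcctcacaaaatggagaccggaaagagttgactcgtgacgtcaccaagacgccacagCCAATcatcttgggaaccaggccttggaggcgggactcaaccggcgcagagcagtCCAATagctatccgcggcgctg
Mcm6 (chr1:128359706-128359955, minus strand): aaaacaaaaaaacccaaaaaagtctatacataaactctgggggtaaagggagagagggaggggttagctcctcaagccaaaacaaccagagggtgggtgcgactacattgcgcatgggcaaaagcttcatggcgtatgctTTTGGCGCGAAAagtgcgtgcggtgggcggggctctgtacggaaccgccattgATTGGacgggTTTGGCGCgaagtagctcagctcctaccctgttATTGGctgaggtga
In Mcm5 and Mcm6 a pair of E2F matches overlaps in a shared GCGC, which both strands read. The strong Rpa3 and the weak Prim1 windows both hold CCAAT, with 28 and 13 CpG pairs in their whole windows. Dbf4 shows no capitals because its 1 match, TTTGAA, spans the start.

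**Figure D2:**
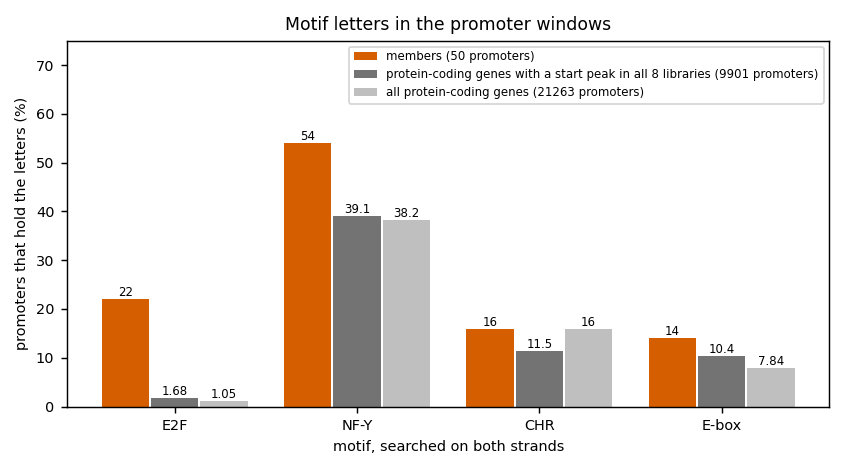
Share of promoter windows that hold the letters of each motif, in percent, for the members, for genes with a start peak in all 8 libraries and for all protein-coding genes. The E2F bars stand at 22% for members against 1.68% and 1.05%, while the bars of the other 3 motifs differ less.

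Next, each mutant was compared with WT for a change in the strength of the start. In 7225 sites, the strongest peak at the start of each gene with a known strand that had one in all 8 libraries, ranks were turned into normal scores (the place of a site on a standard normal curve, so that 1 unit is 1 SD over sites and a positive difference means a stronger peak in the mutant) and fitted with limma over the 4 groups. Of the members, 37 could be tested; the others have no strand in the table or no start peak at the span's own start. No member passed an adjusted p of 0.05 in any contrast. The share of all sites that passed was 0.0554% in Bcat_KO vs WT (4 sites), 0.138% in HOXA9_KO vs WT (10) and 0.0969% in PRMT1_KO vs WT (7). Between mutants it was 0.0415% in Bcat_KO vs PRMT1_KO (3), 0.0% in HOXA9_KO vs Bcat_KO (0) and 0.111% in HOXA9_KO vs PRMT1_KO (8).

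At an unadjusted p under 0.05, 3 of the 37 members stood out in Bcat_KO vs WT (8.11%, against 13.4% of all sites), 10 in HOXA9_KO vs WT (27%, against 16.1%) and 4 in PRMT1_KO vs WT (10.8%, against 10.6%). Between mutants there was 1 member in Bcat_KO vs PRMT1_KO (2.7%, against 6.78%), 0 in HOXA9_KO vs Bcat_KO (against 6.23%) and 3 in HOXA9_KO vs PRMT1_KO (8.11%, against 9.61%). The HOXA9_KO vs WT share depended on the libraries used. Refits without HOXA9_KO replicate 1 or 2, or without WT replicate 2, brought it near or below the share of all sites. Without WT replicate 1 it stayed above that share. With all libraries kept, it ran from 20% (against 16% of sites, any end or listed start) to 31.4% (against 16.5%, −log10 q of at least 5). The counts for Bcat_KO vs WT and PRMT1_KO vs WT also moved with the library left out. Leaving out a library of a compared group leaves 1 library there, so the counts of such refits are not given. The members' median difference from WT was 0.14 in Bcat_KO, 0.13 in HOXA9_KO and 0.12 in PRMT1_KO normal scores, with 23, 22 and 21 of 37 above 0, beside medians of -0.0036, -0.0025 and -0.0046 over all sites. The 3 contrasts share the WT libraries. These medians also moved with single libraries, in both directions. Bcat_KO vs WT was 0.085 without Bcat_KO replicate 2, 0.09 without WT replicate 2 and 0.195 without WT replicate 1. HOXA9_KO vs WT was 0.078 without HOXA9_KO replicate 1 and 0.159 without WT replicate 1. PRMT1_KO vs WT was 0.0064 without PRMT1_KO replicate 1, 0.037 without WT replicate 2 and 0.134 without PRMT1_KO replicate 2. None of the 25 tested genes of the second list passed either, and 1, 4 and 2 of them had an unadjusted p under 0.05 against WT in Bcat_KO, HOXA9_KO and PRMT1_KO.

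Rpa1, the large subunit of replication protein A that coats single-stranded DNA, had the largest difference of all members in each contrast with WT. Smyd4 also starts or ends within 1 kb of this peak's summit, so the difference cannot be given to Rpa1 alone. Its scaled summit reads were 28.2 and 24.6 (WT), 42.5 and 44.4 (Bcat_KO), 40.6 and 44.2 (HOXA9_KO) and 43.6 and 45.4 (PRMT1_KO). The WT libraries lay below all 6 mutant libraries without overlap, with a WT mean of 26.4 ± 2.51 (SD, n = 2) against 43.4 ± 1.69 (SD, n = 6) over the single mutants. The difference in normal score was 0.75 ± 0.22 (SE) in Bcat_KO, 0.72 ± 0.22 in HOXA9_KO and 0.82 ± 0.22 in PRMT1_KO, and the limma adjusted p was 0.205, 0.161 and 0.272. On log2 scaled reads the differences were 0.72, 0.68 and 0.75 with limma adjusted p of 0.0729, 0.0658 and 0.12, so it did not pass on either scale.

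Rrm1, the large subunit of ribonucleotide reductase, came next in Bcat_KO. Its reads were 44.3 and 36.3 (WT), 50.8 and 61.5 (Bcat_KO), 55.7 and 62.5 (HOXA9_KO) and 55.7 and 58.9 (PRMT1_KO), with both WT libraries below the other 6. The differences in normal score were 0.56, 0.67 and 0.58 in Bcat_KO, HOXA9_KO and PRMT1_KO, with limma adjusted p of 0.321, 0.186 and 0.401. Rrm2, the small subunit of the same enzyme, lay the other way, with 59.4 and 53.2 (WT), 48.8 and 43.4 (Bcat_KO), 39.6 and 43.3 (HOXA9_KO) and 52.5 and 48.3 (PRMT1_KO) and both WT libraries above the other 6.

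The other differences among the 5 largest of a contrast did not pass either. In Bcat_KO vs WT they were 0.54 for Mcm10, a helicase activator, 0.53 for Rpa3 and -0.48 for Rfc3, with limma adjusted p of 0.386, 0.35 and 0.413. In HOXA9_KO vs WT they were -0.68 for Mcm9, a meiosis and repair helicase, -0.67 for Gins3 and 0.64 for Orc5, with limma adjusted p of 0.177, 0.212 and 0.237. The Mcm9 reads were 119 and 123 (WT), 99.6 and 106 (Bcat_KO), 81.2 and 88.5 (HOXA9_KO) and 108 and 125 (PRMT1_KO), and the HOXA9_KO libraries were the lowest. In PRMT1_KO vs WT they were 0.62 for Pcna, 0.55 for Pold1 and 0.54 for Clspn, the checkpoint adaptor claspin, with limma adjusted p of 0.371, 0.475 and 0.466. For Pcna, the sliding clamp, the reads were 86.6 and 76.5 (WT), 103 and 92.8 (Bcat_KO), 97.2 and 100 (HOXA9_KO) and 111 and 107 (PRMT1_KO); all 6 mutant libraries lay above WT. Pold1 gave 71.5 and 71.3 (WT), 73.7 and 101 (Bcat_KO), 91.6 and 103 (HOXA9_KO) and 108 and 90.7 (PRMT1_KO), and Clspn gave 20.1 and 27.2 (WT), 27 and 26.2 (Bcat_KO), 37.8 and 31.7 (HOXA9_KO) and 32.3 and 36.7 (PRMT1_KO). The libraries of Pold1 kept the same order, WT lowest, while those of Clspn overlapped between WT and Bcat_KO. Another gene also starts or ends within 1 kb of the summits of Rpa3 (Umad1), Pcna (Cds2) and Pold1 (Nr1h2).

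Such an order was not rare. Each library's ranks were here taken among the same 9970 sites at any end or listed start, and not in its whole list. The 6 mutant libraries all ranked above both WT libraries at 7.99% of sites and all below at 8.41%. The members counted 6 of 50 (12%) and 3 of 50 (6%). These were Mcm4, Pcna, Pold1, Rpa1, Rpa3 and Rrm1 above and Gins1, Mcm8 and Rrm2 below. Only the peaks of Rrm1, Gins1 and Rrm2 among them have no other gene's start or end within 1 kb of the summit. For 1 mutant against WT, both libraries ranked above WT at 20.7% to 23.7% of sites and below at 21.0% to 23.9%. Among members these shares were 22% to 36% and 14% to 18%.

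**Figure D3:**
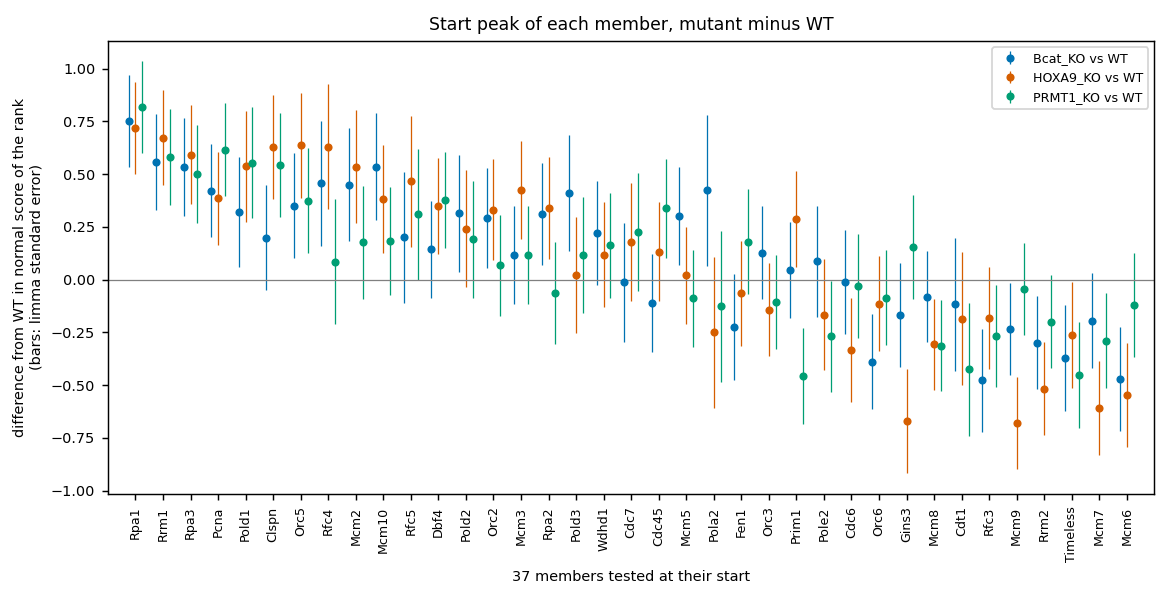
Difference from WT in the normal score of the start peak's rank for the 37 tested members, ordered by their mean, with limma standard errors as bars. Rpa1 leads in all 3 mutants at 0.72 to 0.82, and no member passed the adjusted threshold.

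**Figure D4:**
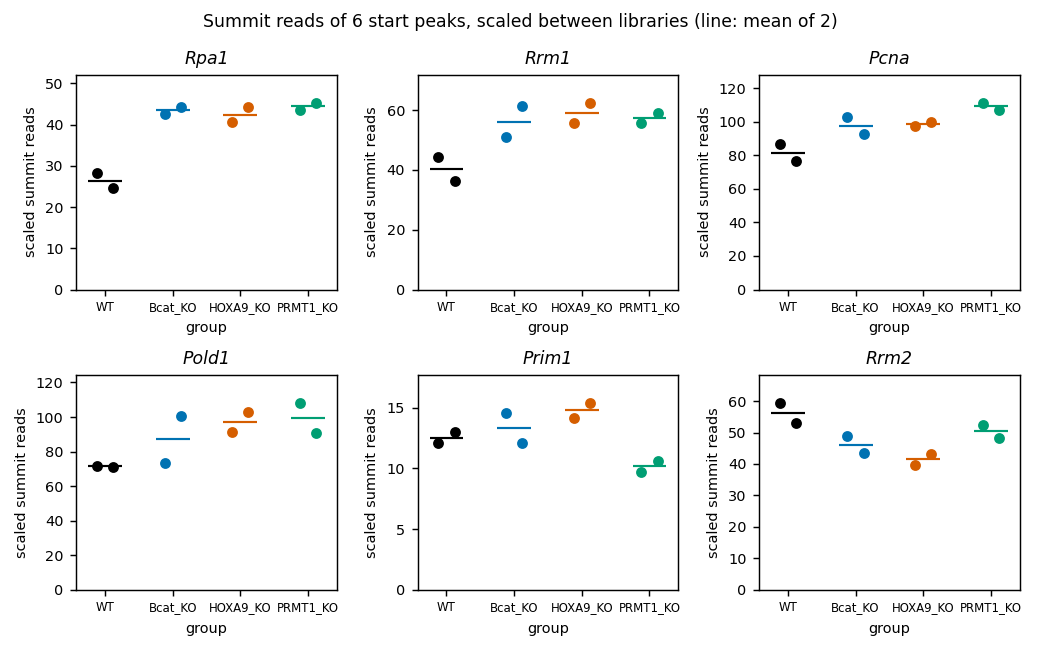
Scaled summit reads of 6 start peaks in the 2 libraries of each paired group, with lines at the means and axes from 0. Rpa1, Rrm1, Pcna and Pold1 are lowest in WT, Rrm2 is highest in WT, and Prim1 is lowest in PRMT1_KO.

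Presence was compared on lists cut to the 28325 strongest peaks, the length of the shortest paired list; a site was called gained or lost when both libraries of the mutant and neither of WT had it, or the reverse. Among 12664 genes with an end peak, 46 of them members, 0.979% gained and 2.27% lost one in Bcat_KO, 1.22% and 1.85% in HOXA9_KO and 0.853% and 2.41% in PRMT1_KO. No member gained an end peak, and the 1 loss, 1 of 46 (2.17%), was Prim1 in PRMT1_KO. In the second list Rnaseh2c, a subunit of ribonuclease H2, was lost in PRMT1_KO.

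The Prim1 peak, at chr10:128015096-128015552 and 31 bp before the start, had fold values of 5.53 and 5.42 (WT), 6.48 and 5.81 (Bcat_KO), 6.77 and 7.74 (HOXA9_KO) and 4.99 and 4.94 (PRMT1_KO). It was still listed in both PRMT1_KO libraries, at ranks 31497 and 29794, and so fell outside the shortened lists rather than disappearing. In scaled reads PRMT1_KO was the lowest group with no overlap, but the unscaled summits held 12 and 11 reads in PRMT1_KO and 12 and 10 in WT. In the test of ranks its difference from WT was -0.46 with a limma adjusted p of 0.504, and the loss was not called with the lists as deposited or with ranking by fold.

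The far end of Rfc3 had a peak in all 6 single mutant libraries and none in WT. The region, chr5:151642734-151643202, spans the 3′ end of the gene, with its summit 8161 bp from the start, so it is not the promoter shown above. Fold values were 9.53 and 7.55 in Bcat_KO, 5.96 and 9.92 in HOXA9_KO and 8.99 and 9.48 in PRMT1_KO, and no peak was listed in WT or in dKO. Of 54422 regions near genes on the deposited lists, 1.71% were in all 6 mutant lists and neither WT list; of the 166 member regions this was the only one (0.602%). Counting each end of a gene on its own, 1.26%, 1.5% and 1.19% of 13813 ends were gained in Bcat_KO, HOXA9_KO and PRMT1_KO, and Rfc3 was the only member end in each, of 47. Both WT lists are shorter. The median summit held 15 reads in WT replicate 2 and 16 in WT replicate 1, against 16 to 19 in the single mutants. None of the 5 member regions at a far end was listed in WT, against 1 to 3 per single mutant library. The start of Rfc3 had a peak in all 9 libraries.

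Inside Prim2, which encodes the large primase subunit, the opposite was seen. A region at chr1:33630986-33631384 had fold values of 5.74 and 3.94 in WT and no peak in any other library. Regions in both WT lists and none of the 6 mutant lists made up 0.186% of the 54422, and this was the only one of the 166 member regions (0.602%). Its WT ranks were 18390 and 25930, in the weaker part of both lists.

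Among 27231 other regions, those beyond 1 kb from an end, 63 lay at members. In Bcat_KO 5 of the 63 were gained (7.94%, against 4.99% of all) and 2 lost (3.17%, against 3.56%). In HOXA9_KO 2 were gained (3.17%, against 5.57%) and 3 lost (4.76%, against 4.18%), and in PRMT1_KO 5 were gained (7.94%, against 4.82%) and 1 lost (1.59%, against 3.18%). These shares lie near those of all regions, on counts of 1 to 5.

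A region inside Rrm2, 2051 bp from its start (chr12:24710220-24710661), was gained in all 3 mutants, with fold values of 4.64 and 6.56 in Bcat_KO, 6.19 and 6.75 in HOXA9_KO and 4.52 and 4.78 in PRMT1_KO. WT replicate 1 listed it at rank 29926 with a fold of 2.87, just below the shortened list, and WT replicate 2 did not list it. Regions inside Mcm9 (chr10:53608376-53608628, near Asf1a), 3705 bp outside Clspn (chr4:126553189-126553632) and 1260 bp outside Rfc5 (chr5:117377659-117378071, near Wsb2) were gained in both Bcat_KO and PRMT1_KO. For Mcm9 no peak was listed in WT or HOXA9_KO, and the folds were 5.18 and 7.6 in Bcat_KO and 6.53 and 6.29 in PRMT1_KO.

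The remaining calls were each made in 1 or 2 mutants. A region inside Rpa1 (chr11:75313829-75314243) was gained in Bcat_KO, and both HOXA9_KO libraries also listed it, with folds of 8.45 and 5.01. A region inside Rfc2 (chr5:134584886-134585155) was gained in PRMT1_KO and was also listed in Bcat_KO replicate 1, with a fold of 5.31. In HOXA9_KO a region 8112 bp outside Mcm2 (chr6:88906691-88907008) was gained. Both Bcat_KO libraries (folds 3.41 and 3.76) and PRMT1_KO replicate 2 (4.48) also listed it. On the other side of Mcm2, a region near Podxl2 (chr6:88874862-88875205) was lost in Bcat_KO and HOXA9_KO, and a region near P2rx2 outside Pole (chr5:110342470-110343293) in HOXA9_KO. The Podxl2 region had no peak in Bcat_KO but was listed in HOXA9_KO with folds of 4.36 and 3.64. The P2rx2 region was still listed in HOXA9_KO replicate 2, with a fold of 4.53.

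**Figure D5:**
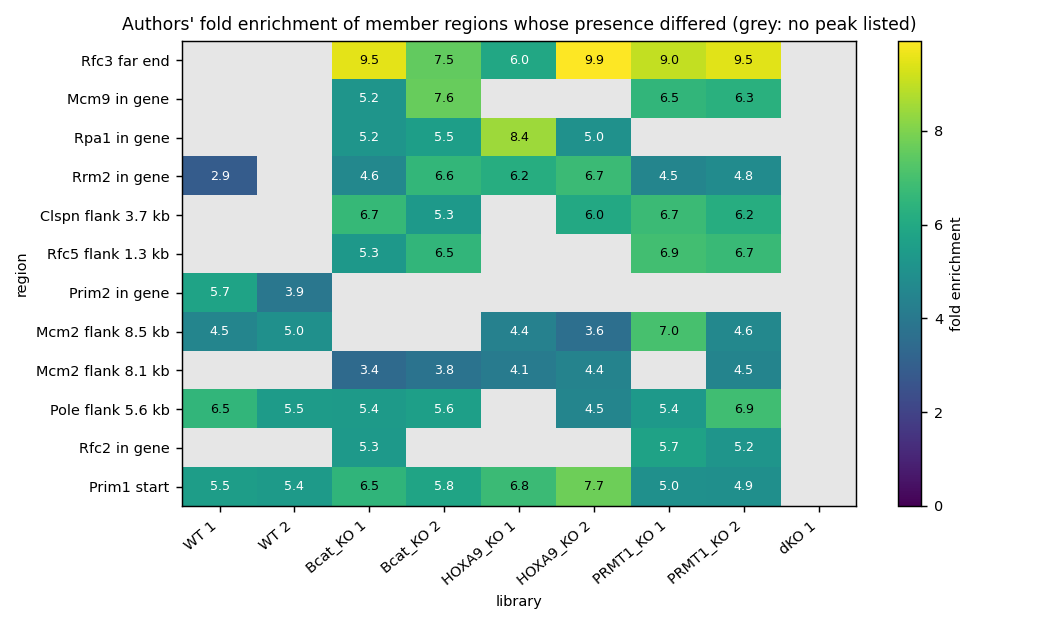
The authors' fold enrichment in each library for the Rfc3 far end and the 11 member regions whose presence was called different from WT in at least 1 mutant; grey means no peak listed. The Rfc3 far end is filled in the 6 single mutant libraries, the Prim2 region in WT alone, and the Prim1 start in all 8 paired libraries.

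Away from the ends, most member regions were found in few libraries. Of 50 regions inside members, 7 were listed in all 8 paired libraries and 22 in 1, and of 61 regions in the flanks 15 were in all 8 and 29 in 1; 16 of the flank regions lay at an end of another gene. The strongest intragenic region without another gene's end nearby was in Lig1 (chr7:13302658-13303364), at ranks 1301 to 2745 in the 8 libraries and unlisted in dKO.

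In dKO, with 1 library and no test, 33 of 50 members had an end peak (66%). With listed starts counted there were 36 (72%), beside 32.7% of all genes by the same rule. Cut to the same 10639 peaks, the 8 other lists held 41 to 46 members at an end or listed start (82% to 92%). The share of all genes in these cut lists was 34.0% to 37.8%. The 14 members without such a peak in dKO were Rrm1, Orc6, Wdhd1, Rfc4, Rfc1, Pold3, Rfc5, Gins3, Rpa2, Mcm2, Rfc2, Timeless, Prim1 and Pola2. By role, 8 of 9 licensing genes and 8 of 9 MCM genes were listed, against 2 of 6 clamp and loader genes and 2 of 4 fork protection genes. Rrm1 had the best median rank in the other libraries of those missing, at 2618.5. The median summit held 8 reads in dKO against 15 to 19 elsewhere. The part of depth in the missing peaks was not tested, and an unlisted site is not shown to be closed; Cdc7 and Tipin, with median ranks of 11259.5 and 9376.5 elsewhere, were listed.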

How the data were processed

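The authors deposited 1 MACS2 narrowPeak list per library, with no pooling across replicates; per the submitters' processing notes, reads were processed with Bowtie2 2.4.2, SAMtools 1.14 and Picard 2.27.4 on GRCm38. Each deposited peak carries a fold enrichment ratio at its summit, a −log10 p-value and a −log10 q-value, an integer score and its position; every listed q was at least 1 on the −log10 scale. How MACS2 was run, including any shift of Tn5 cuts, is not given in the sources used here. Lists contain no values outside peaks, so an unlisted site has no level.

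From these files, whole summit reads were recovered from fold and p (at least 99.99% of peaks, within 0.01 of a whole number). Precision is limited by 9 to 165 reads at member summits. Ranks of start peaks were fitted with limma 3.58.1 in R 4.3.3 over the 4 paired groups, with Benjamini-Hochberg adjustment over 7225 sites, tested on simulated data first. With 2 libraries against 2, an exact permutation test of 1 value cannot go below 0.333, so none is given. Gene spans came from RefSeq on GRCm38.p6; strand was known for 41 of the 50 members through the promoter table, and the other 9 (Gmnn, Mcm4, Gins1, Gins2, Gins4, Rfc2, Prim2, Pole and Tipin) were compared by presence and in an added fit over any end or listed start.

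Members, lists and tests were chosen with earlier results of these data known. Named are members with a called end peak, those without an end peak in a shortened list, the strongest and weakest of each role, the 5 largest differences of each WT contrast, and all called regions. Ranking by fold, scaled reads, windows of 500 bp and 2 kb, a −log10 q of at least 5, deposited lists and leaving out each library were the alternatives tried; the fit over any end or listed start, calls on single ends, calls over all 6 mutant libraries and orders of ranks were added after seeing the data. Samples were grouped by their titles.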

Additional observations from a re-analysis of the deposited data

Results flagged for a closer look

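At 2 member sites, ranks taken among the same 9970 sites placed both HOXA9_KO libraries above and both PRMT1_KO libraries below both WT libraries. Each order alone was common. Both HOXA9_KO libraries ranked above WT at 23.7% of all sites and 36% of members. Both PRMT1_KO libraries ranked below WT at 21.0% of all sites and 14% of members. The share of all sites with both orders at once was not counted, so whether 2 members is unusual was not tested. Neither difference between HOXA9_KO and PRMT1_KO passed the threshold. At the Prim1 start, HOXA9_KO minus PRMT1_KO was 0.77 normal scores, with an unadjusted limma p of 0.00483 and an adjusted p of 0.285. At the Gins4 end, whose strand is not known, it was 0.26 normal scores, with an unadjusted limma p of 0.277 and an adjusted p of 0.737, and the scaled summit reads of HOXA9_KO and WT overlapped.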

How the results depend on the processing

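No member passed limma in any of the 6 contrasts under any alternative run (ranking by fold, scaled reads, windows of 500 bp and 2 kb, a −log10 q of at least 5, each library left out, any end or listed start); the lowest adjusted p of any member under any of them was 0.0657, for HOXA9_KO vs WT on scaled reads. The replicate numbers did not pair the samples (correlations of deviations from -0.0295 to 0.0486), and the fit with a replicate block also called 0 members in each contrast. All 15 of the largest single differences kept their direction in the 240 values of the alternative settings, Rpa1 between 0.56 and 1.18 on the normal score scale. They were picked as the largest in these same data, so a kept direction is no independent support. Where the libraries of 2 groups do not overlap, leaving 1 out can hardly turn the sign. Counts of regions away from the ends moved more. With a −log10 q of at least 5 the gained regions numbered 9, 4 and 8 and the lost ones 0, 1 and 0 in Bcat_KO, HOXA9_KO and PRMT1_KO, and 21 members kept an end peak in dKO. With the lists as deposited 4 were gained in HOXA9_KO. The Prim1 loss fell to 0 with the lists as deposited, with a −log10 q of at least 5 and with ranking by fold. Leaving out 1 library at a time, gained regions ranged over 7 to 8, 3 to 6 and 7 to 10 and lost ones over 2 to 5, 3 to 7 and 2 to 4 in Bcat_KO, HOXA9_KO and PRMT1_KO; a group left with 1 library needs only that library to agree. Over the same refits end peaks lost ranged over 0 to 1 in HOXA9_KO (1 without HOXA9_KO replicate 2) and 1 to 2 in PRMT1_KO (2 without PRMT1_KO replicate 2). The WT lists, at 28325 and 35581 peaks, and the dKO list, at 10639, limit what can be called missing.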

Other observations

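In dKO, 11 of the 61 member regions in flanks and 1 of the 50 inside genes were listed. The region inside Lig1, the replicative ligase gene, chosen after its values were seen, had fold values of 14.4 to 18.2 in the 8 paired libraries and no peak in dKO. With 1 dKO library no test was made, and regions outside the members were not counted in this way.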
